A study of Mus musculus with 29 samples.

Results

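Titin (Ttn), myosin-binding protein C (Mybpc3), α-actinin 2 (Actn2), ZASP/Cypher (Ldb3), the myomesins (Myom1 and Myom2), telethonin (Tcap) and myospryn (Cmya5) were followed across mouse hearts with and without protein kinase C ablation and pressure overload. The 8 genes were taken by symbol from the deposited count table of 23418 gene rows, as a set of structural proteins that hold the sarcomere, the contractile unit of striated muscle, in register. All 8 passed the filter on low counts, which left 13765 genes for testing. They took 3.06% to 4.06% of the counts assigned to genes in a library.

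The study measured polyadenylated RNA of the ventricular apex in 29 libraries from C57BL/6J mice, all labelled 12 weeks old. A tissue label of whole heart stands beside this protocol. Of the 4 genotypes, one was wild type, one had a postnatal ablation of PKCδ (Prkcd) in the heart, one a germline knockout of PKCε (Prkce), and one is labelled a combined knockout. Hearts were unstressed (4 wild-type, 3 PKCδ, 3 PKCε and 4 combined libraries) or were taken 4 weeks after transverse aortic constriction (TAC; 4, 3, 4 and 4 libraries). TAC is an operation that narrows the aorta and makes the left ventricle pump against a higher pressure. The labels call the controls unstressed and do not name a sham operation, the Cre driver or the deleted exons. The PKCε knockout affects every cell of the animal, whereas the PKCδ ablation is labelled cardiac. PKCδ and PKCε are kinases of cardiomyocytes and other cells that do not need calcium for their activity.

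In a sarcomere, thin actin filaments are anchored at the Z-disc by α-actinin, and thick myosin filaments are tied together at the M-band by myomesins. Titin, the largest known protein, spans from the Z-disc to the M-band and acts as the spring that gives the relaxed heart muscle much of its stiffness. Telethonin caps the ends of titin at the Z-disc, ZASP binds α-actinin there, myosin-binding protein C decorates the thick filament and tunes crossbridge cycling, and myospryn binds α-actinin and other proteins at the Z-disc and the membrane systems around it. Mutations of several of these genes, foremost TTN and MYBPC3, cause inherited cardiomyopathies in humans.

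The genes lie apart from each other (GRCm38.p6): Ttn at chr2:76703980-76982557 on the minus strand, Mybpc3 at chr2:91118114-91136516 on the plus strand, Actn2 at chr13:12269426-12340732 and Cmya5 at chr13:93040713-93144724, both on the minus strand. Ldb3 lies at chr14:34526699-34590314 (minus), Myom1 at chr17:71003332-71126856 (plus), Myom2 at chr8:15057653-15133420 (plus) and Tcap at chr11:98383811-98384953 (plus). Ldb3 is 3.9 Mb from Prkcd and Myom1 is 15 Mb from Prkce, the genes that were deleted. The longest annotated transcript ran from 0.95 kb for Tcap to 106.82 kb for Ttn. Because the libraries did not keep the strand, reads of opposite-strand neighbours cannot be told apart where exons overlap, which touched 21.7% of the exon bases of Cmya5, 1.98% of Myom1, 0.388% of Ttn and none of the other 5 genes.

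The bases upstream of the start site are shown for 2 genes that fell under TAC in wild-type hearts (Ttn and Cmya5) and 2 that rose (Mybpc3 and Actn2), from the RefSeq table of GRCm38.p6 and 5′ to 3′ on the strand of the gene. The window runs up to 250 bases before the start site without any base inside the annotated gene, which leaves chr2:76982558-76982797 (minus) for Ttn, chr2:91117894-91118113 (plus) for Mybpc3, chr13:12340733-12340982 (minus) for Actn2 and chr13:93144725-93144974 (minus) for Cmya5. Capitals mark a match to a MEF2 motif (CTANNNNTAG, which reads the same on both strands) or to a GATA motif (AGATAA on either strand).
Ttn: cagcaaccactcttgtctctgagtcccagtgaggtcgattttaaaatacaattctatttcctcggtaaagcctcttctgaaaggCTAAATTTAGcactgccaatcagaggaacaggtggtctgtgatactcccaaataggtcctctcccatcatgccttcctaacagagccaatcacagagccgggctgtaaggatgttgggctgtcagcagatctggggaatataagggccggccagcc
Mybpc3: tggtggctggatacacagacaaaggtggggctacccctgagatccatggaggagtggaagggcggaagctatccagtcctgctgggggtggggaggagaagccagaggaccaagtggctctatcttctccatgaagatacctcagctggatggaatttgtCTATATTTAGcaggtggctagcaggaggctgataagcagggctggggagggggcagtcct
Actn2: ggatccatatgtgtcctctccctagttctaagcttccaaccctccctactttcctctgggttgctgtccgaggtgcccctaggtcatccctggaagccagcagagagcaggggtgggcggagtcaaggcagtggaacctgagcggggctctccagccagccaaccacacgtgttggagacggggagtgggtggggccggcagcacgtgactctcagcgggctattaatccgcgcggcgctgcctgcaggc
Cmya5: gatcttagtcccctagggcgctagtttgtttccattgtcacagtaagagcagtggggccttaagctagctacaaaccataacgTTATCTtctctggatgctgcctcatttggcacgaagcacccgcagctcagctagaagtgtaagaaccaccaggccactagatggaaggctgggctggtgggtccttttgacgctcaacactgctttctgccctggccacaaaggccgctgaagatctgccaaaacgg

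MEF2 and GATA factors are transcription factors of heart muscle. Positions are counted from the listed RefSeq start site, which for Ttn, Mybpc3, Ldb3 and Myom1 lies inside the annotated gene. The windows of Ldb3 and Myom1 lay wholly inside the gene and are not printed. The bases printed for Ttn and Mybpc3 stop short of that site, so their marked letters lie nearer to the printed end. The MEF2 letters lay at -166 to -157 for Ttn and at -90 to -81 for Mybpc3. They were thus held by a gene that fell and a gene that rose under TAC. They also lay at -55 to -46 for 1 of the start sites of Ldb3. The GATA letters lay at -167 to -162 for Cmya5 and at -115 to -110 for Myom1. The window of Actn2 held neither motif, and none of the 6 matched genes held TATAAA or CATTCC (the M-CAT motif) on either strand. Of 32851 promoter windows of the same length, 3.20% held the MEF2 letters, 9.99% the GATA letters, 12.4% TATAAA and 12.6% CATTCC. The searched motifs did not overlap each other in these genes, and a match of letters is not evidence of a bound factor.

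Between 10523709 and 17314739 counts fell on genes in a library. Levels are given as CPM, counts per 1000000 of the TMM-scaled library, and as mean ± SD over libraries. The summed level of 10 cardiomyocyte markers was 89042 to 121390 CPM in all libraries. Prkce was at 42.4 to 52.9 CPM in unstressed wild-type and PKCδ libraries and at 6.59 to 10.8 CPM in PKCε and unstressed combined libraries. In the TAC arm the library labelled combined replicate 2 had 31.5 CPM of Prkce against 8.21 to 11.0 in the other 3, which goes against its label, and wild-type replicate 2 had 24.0 CPM against 33.3 to 42.9. Prkcd was at 16.3 to 18.7 CPM in unstressed PKCδ libraries and at 13.4 to 15.9 CPM in wild type, so its summed count over all exons does not check the PKCδ label. Myh2, a myosin of fast skeletal muscle, was at 14.6 to 28.8 CPM in the unstressed PKCε libraries, at 2.99 to 18.1 CPM in the TAC PKCε libraries, at 6.27 to 7.66 CPM in 3 combined TAC libraries and at 10.2 CPM in wild-type TAC replicate 2. It stayed at or below 0.301 CPM in all other libraries, including 0.152 CPM in the library labelled combined TAC replicate 2. Values without this library and wild-type TAC replicate 2 are therefore given wherever a call depends on them. Over the 10 skeletal muscle markers the summed level was 23.7 to 37.2 CPM in unstressed PKCε libraries and 5.42 to 7.84 CPM in unstressed wild type. Most of the PKCε sum was Myh2 itself, with a mean of 21.8 CPM against 0.170 CPM in wild type. The next highest mean was that of Atp2a1, at 2.81 against 1.41 CPM. Of the 7 markers tested in this comparison, 2 were called higher and none lower. The lowest value of the 8 genes in any library was 748 CPM.

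In wild-type hearts titin was the most abundant of the 8 genes by counts, and its transcript level decreased by 49.5% after TAC, while Mybpc3, Actn2 and Myom1 rose and Cmya5 fell. Per kb of annotated exon the order was another: Tcap stood at 2048 ± 437 CPM per kb, Mybpc3 at 1421 ± 44.7, Actn2 at 795 ± 73.9, Myom2 at 223 ± 32.4, Ldb3 at 200 ± 8.05, Ttn at 178 ± 27.1, Myom1 at 153 ± 13.2 and Cmya5 at 103 ± 7.11 (SD, n = 4). By this scale of level, Tcap stood first and titin sixth. The scale divides by all annotated exons of a gene, which for Myom1 come to 10.46 kb beside a longest transcript of 5.65 kb. For Ttn these lengths were 116.83 and 106.82 kb. The order by longest transcript was not computed.

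**Figure D1:**
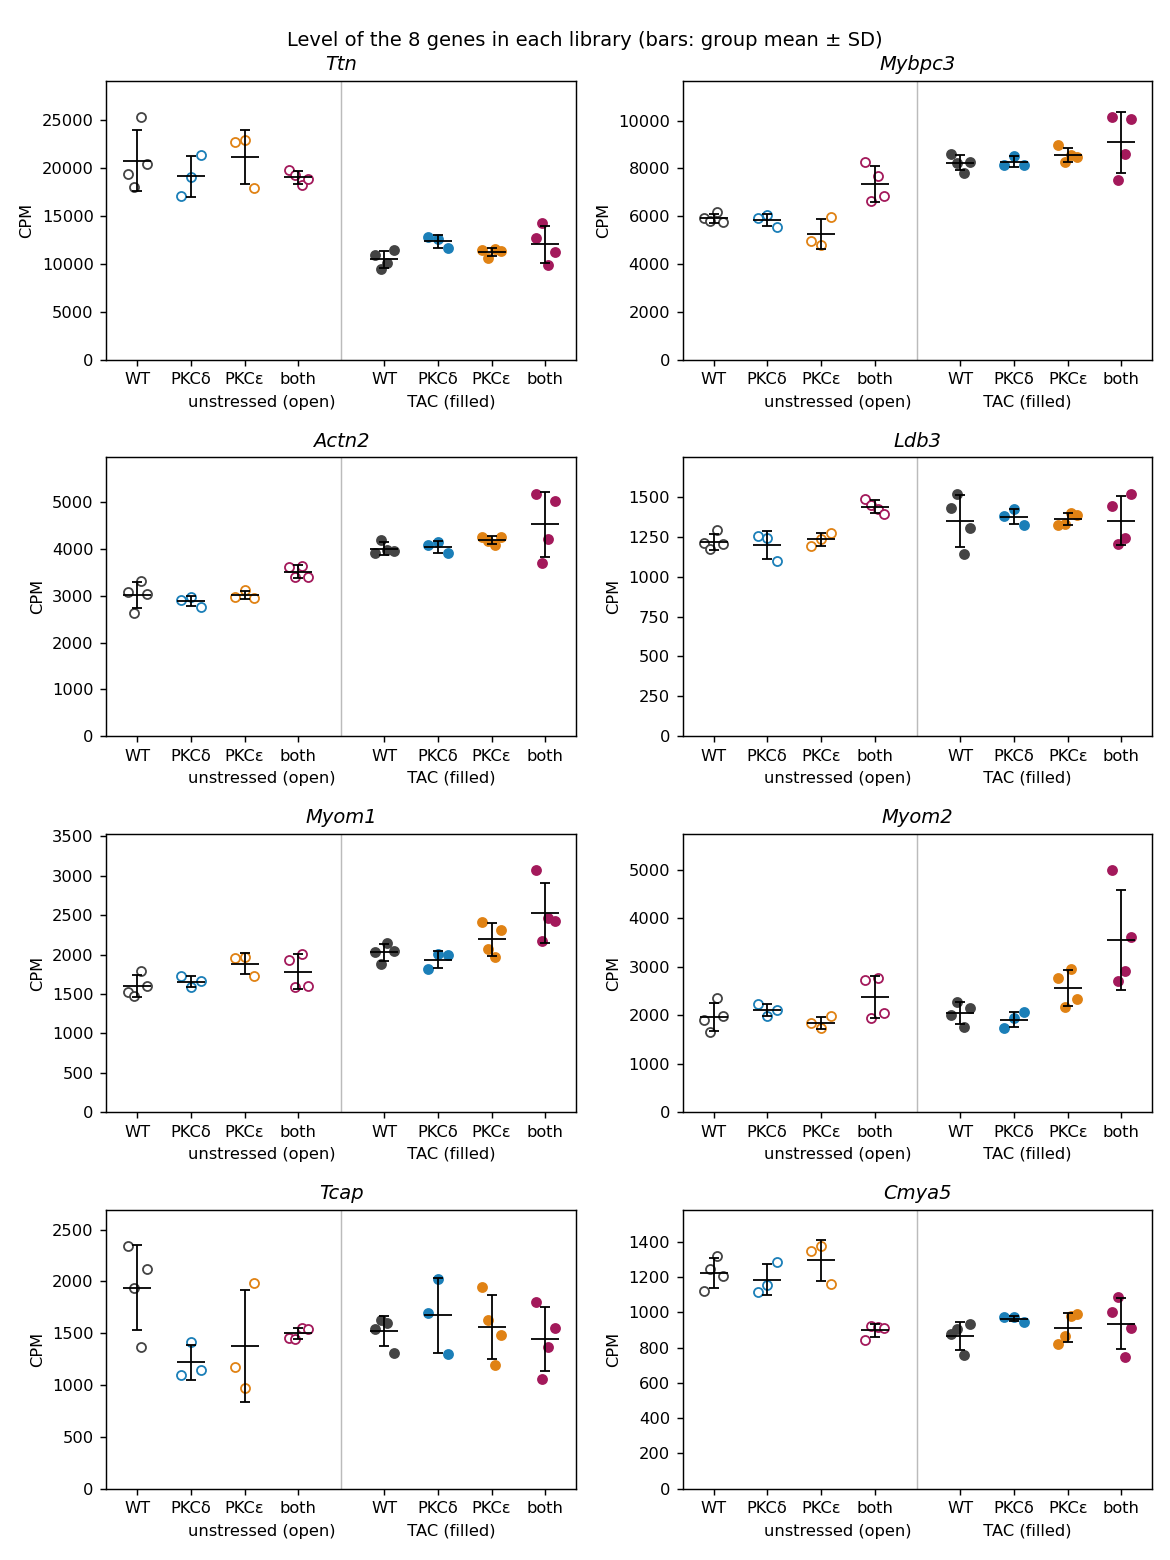
Level of each gene in CPM (vertical axis from 0) in every library, by genotype (horizontal axis; "both" is the combined knockout), with unstressed libraries as open and TAC libraries as filled points; black bars are the group mean ± SD. Titin lies between 17012 and 25256 CPM in all unstressed libraries and between 9473 and 14295 CPM in all TAC libraries.

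Titin fell after TAC in all 4 genotypes. Its level in unstressed wild-type libraries was 19346, 17996, 25256 and 20414 CPM, and 10913, 9473, 10082 and 11488 CPM after TAC, so the groups did not overlap. The log2 fold change was -0.98 ± 0.10 (SE; adjusted p = 5.6e-08, edgeR's quasi-likelihood test with Benjamini-Hochberg adjustment over all genes). In PKCδ libraries the level went from 17012, 19007 and 21308 CPM to 12826, 12551 and 11613 CPM (log2 fold change -0.63 ± 0.12, adjusted p = 0.00025). In PKCε libraries it went from 22711, 22887 and 17927 CPM to 11464, 10635, 11579 and 11283 CPM (-0.91 ± 0.11, adjusted p = 7.2e-07). In combined knockout libraries it went from 19824, 19206, 18218 and 18872 CPM to 12729, 14295, 9864 and 11209 CPM (-0.66 ± 0.10, adjusted p = 6.2e-06), with the highest TAC value in the library labelled replicate 2. In each genotype every TAC library lay below every unstressed one.

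The order of the 8 group means for titin was PKCε, wild type, PKCδ and combined among unstressed hearts (21175 to 19030 CPM) and PKCδ, combined, PKCε and wild type among TAC hearts (12330 to 10489 CPM). Neighbours in this order overlapped in their ranges within each condition, and the only gap lay between the unstressed and the TAC groups. The smaller falls in PKCδ and combined hearts did not pass the test of the difference from wild type: the TAC effect differed by 0.35 ± 0.16 (adjusted p = 0.31) in PKCδ and by 0.32 ± 0.14 (adjusted p = 0.10) in combined hearts on the log2 scale. Without combined TAC replicate 3 the second difference was 0.41 (adjusted p = 0.030).

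Genes with long transcripts had a lower median change under TAC than shorter ones. Among the 326 tested genes whose longest annotated transcript is at least 10 kb, the median log2 fold change in wild type was -0.21, with 132 genes lower and 38 higher. The median was 0.12 for the 2630 genes under 2 kb and 0.00 for all genes tested. Within this class 8 of the 326 genes had a lower log2 fold change than titin in wild type, 36 in PKCδ, 10 in PKCε and 28 in combined hearts. In combined hearts the median of the long genes was -0.03. The median log2 CPM of the long genes lay above that of the genes under 2 kb by 1.71 to 1.90 in unstressed wild-type libraries and by 1.36 to 1.59 after TAC. In combined libraries this gap was 1.53 to 1.68 unstressed, already below the unstressed wild-type range, and 1.59 to 1.69 after TAC. The part of transcript length or of RNA integrity in the fall of titin was not tested. The most abundant gene took 9.90% to 14.1% of gene counts in unstressed libraries, where it was always Rn45s, a ribosomal RNA precursor. In TAC libraries it took 4.86% to 8.59% and was Rn45s or Myh6. The share of Rn45s in libraries led by Myh6 is not given here. The part of Rn45s in the fall of titin was not tested.

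**Figure D2:**
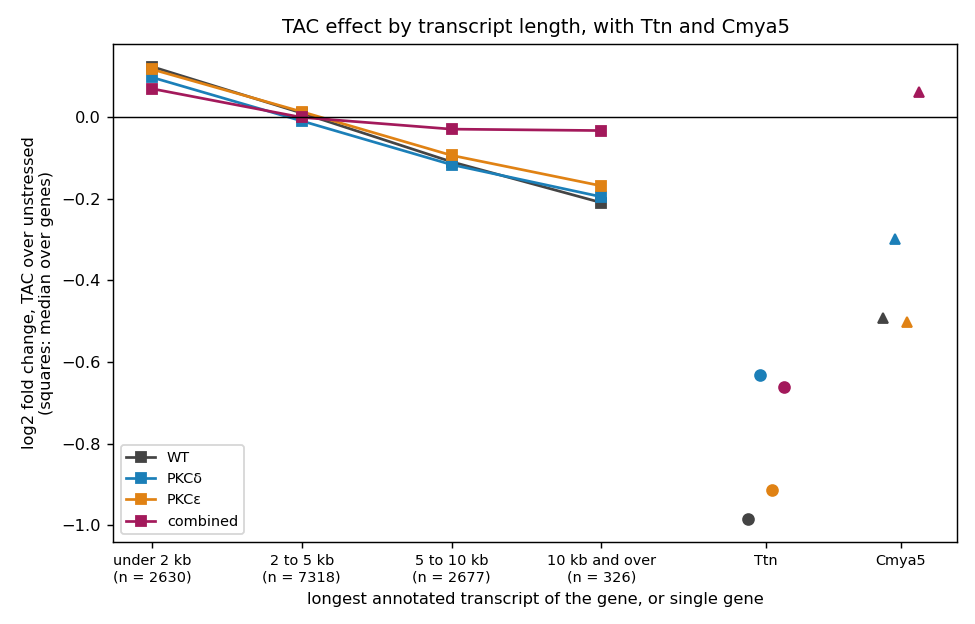
Median log2 fold change of TAC over unstressed (vertical axis) in 4 classes of genes by the length of their longest annotated transcript (squares, n genes below), with Ttn (circles) and Cmya5 (triangles), coloured by genotype. Titin lies between -0.98 and -0.63, below the medians of the genes of 10 kb and over, which are -0.21 to -0.03.

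The genes most like titin over the 29 libraries were 3 others with long transcripts: Kcnq1ot1, a long non-coding RNA (93.1 kb, Pearson r = 0.98), Huwe1, a ubiquitin ligase (14.6 kb, r = 0.95), and Cep350, a centrosomal protein (13.3 kb, r = 0.94), among 10177 genes compared. Kcnq1ot1 fell by 1.21 on the log2 scale in wild type under TAC, by 0.92 in PKCδ, by 1.02 in PKCε and by 0.72 in combined hearts. These correlations run across libraries that share the TAC contrast, and are a description. After the group means were subtracted, the closest genes included Ankle2 (r = 0.86) and Eif2c3 (r = 0.82). Among the other 7 genes, Cmya5 moved with titin over all libraries (r = 0.75) and within groups (r = 0.71), whereas Mybpc3 (r = -0.82) and Actn2 (r = -0.79) moved against it over all libraries but not within groups (r = -0.23 and 0.06).

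Of the 8 genes of RNA-binding proteins listed as regulators of titin splicing, 6 fell in wild type under TAC and none rose, where 17.9% of all tested genes fell and 17.8% rose. The list's median log2 fold change was -0.41 in wild type. Rbm20, the splicing factor that sets the length of titin's spring region, was at 502 ± 29.3 CPM in unstressed (SD, n = 4) and at 372 ± 9.40 CPM in TAC wild-type hearts (log2 fold change -0.43 ± 0.07, adjusted p = 1.3e-05). It fell by 0.40 in PKCε (adjusted p = 0.00011) and by 0.43 in combined hearts (adjusted p = 5.5e-06), while in PKCδ hearts it was at 438 ± 8.06 CPM unstressed and 401 ± 12.3 CPM after TAC (SD, n = 3), which did not pass the test. Mbnl1 fell by 0.44, Mbnl2 by 0.52 and Celf1 by 0.33 in wild type, all 3 being regulators of alternative splicing. The counts per gene do not show which titin isoforms were present. In the other genotypes 3 (PKCδ), 5 (PKCε) and 5 (combined) of the 8 genes fell and none rose, beside 14.0%, 14.3% and 21.8% of all genes that fell.

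**Figure D3:**
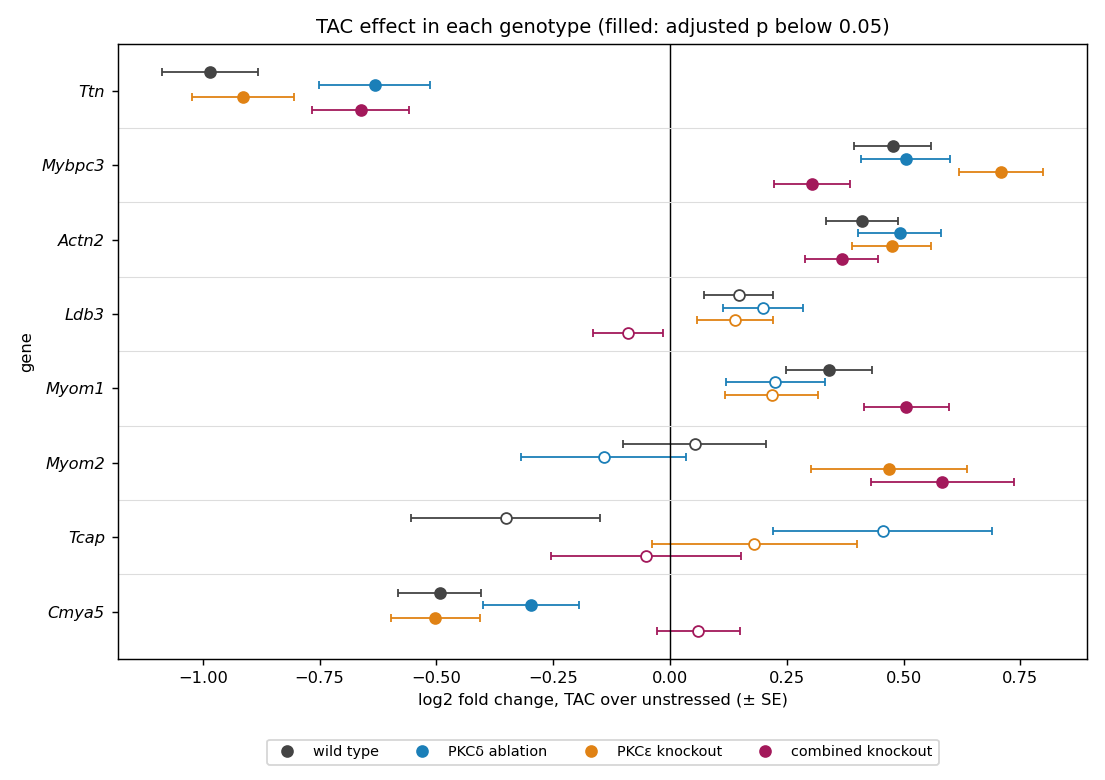
Log2 fold change of TAC over unstressed (horizontal axis, ± SE) for each of the 8 genes in the 4 genotypes; filled points passed an adjusted p of 0.05. Ttn lies left of 0 and Mybpc3 and Actn2 right of 0 in all 4 genotypes, while Cmya5 lies left of 0 in 3 and at 0.06 in the combined knockout.

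In all, 3 of the 8 genes rose and 2 fell under TAC in wild type, against 17.8% of all tested genes higher and 17.9% lower. In PKCδ hearts 2 rose and 2 fell (12.9% and 14.0% of all genes), in PKCε hearts 3 rose and 2 fell (14.5% and 14.3%), and in combined hearts 4 rose and 1 fell (22.0% and 21.8%). Ttn, Mybpc3 and Actn2 were called with the same sign in each. The median log2 fold change of the 8 genes was 0.10 in wild type, 0.21 in PKCδ, 0.20 in PKCε and 0.18 in combined hearts, and over all genes it was -0.00, -0.02, 0.00 and 0.00.

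Mybpc3, the thick-filament member, rose under TAC in every genotype. Wild-type libraries had 5925, 5800, 6172 and 5759 CPM unstressed and 8599, 8238, 7826 and 8260 CPM after TAC, with no overlap (log2 fold change 0.48 ± 0.08, adjusted p = 5.2e-05). The largest change was in PKCε libraries, from 4973, 4794 and 5957 CPM to 8960, 8281, 8559 and 8475 CPM (0.71 ± 0.09, adjusted p = 1.6e-06). The PKCδ change was 0.50 ± 0.09 (adjusted p = 0.00025). In combined hearts the unstressed level was already high, at 8266, 6619, 7679 and 6865 CPM, and the TAC libraries had 10133, 7509, 8617 and 10076 CPM, so that the ranges overlapped (0.30 ± 0.08, adjusted p = 0.0034). The lowest of these TAC values belongs to the library labelled replicate 2, without which and wild-type TAC replicate 2 the change was 0.39 (adjusted p = 0.00020), while over libraries labelled male, a fit with 1 combined TAC library, it was 0.23 (adjusted p = 0.15). Mybpc2, the paralogue of fast skeletal muscle, rose in all 4 genotypes, from 44.8 ± 4.85 CPM to 129 ± 40.4 CPM in wild type (SD, n = 4; adjusted p = 0.00015). Mybphl, a related gene known from atrial muscle, was at 0.194 ± 0.225 CPM in unstressed wild type and at 4.83 ± 3.05 CPM in unstressed combined hearts (SD, n = 4; adjusted p = 9.6e-05). In unstressed PKCδ hearts it was higher than in wild type too, at 2.89 ± 0.77 CPM (SD, n = 3; adjusted p = 0.0094). The other 2 genes of that list did not pass the filter. Atrial marker genes, summed, were at 15.4 to 23.0 CPM in unstressed wild type and at 21.6 to 27.6 CPM in unstressed combined hearts. In unstressed PKCδ hearts the sum was 23.8 to 29.8 CPM. Most of it was Stard10, with means of 16.2 CPM in wild type, 20.6 in combined and 22.5 in PKCδ hearts. Myl4 stood at 3.06, 3.38 and 3.05 CPM in the same order. None of the 4 atrial markers tested was called in either comparison with wild type. The part of atrial tissue in the Mybphl differences was not tested.

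Actn2, the crosslinker of actin at the Z-disc, rose in all genotypes. In wild type it went from 3072, 2641, 3320 and 3038 CPM to 3922, 4204, 3974 and 3949 CPM (log2 fold change 0.41 ± 0.08, adjusted p = 0.00014), without overlap. The change was 0.49 ± 0.09 in PKCδ (adjusted p = 0.00017), 0.47 ± 0.08 in PKCε (adjusted p = 0.00011) and 0.37 ± 0.08 in combined hearts (adjusted p = 0.00031). In combined TAC libraries the values of 5184, 3707, 4214 and 5025 CPM were spread more widely than in any other group, with the library labelled replicate 2 again the lowest. The fit of libraries labelled male holds 1 combined TAC library, which is replicate 3 and not replicate 2. In that fit the combined change of Actn2 was 0.26, against 0.37 in the main fit. Actn2 and Mybpc3 moved together over the 29 libraries (r = 0.93) and within groups (r = 0.67). Closest to Actn2 over all libraries were Cnksr1, a scaffold protein (r = 0.96), Sema3f, a guidance cue (r = 0.94), and Flnc, a Z-disc filamin (r = 0.94). Closest to Mybpc3 were Hagh, R3hcc1 and Lsm4 (all r = 0.94).

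Ldb3 did not pass the TAC test in any genotype. Its group means lay between 1199 and 1440 CPM. The log2 fold changes were 0.15 ± 0.07 in wild type (adjusted p = 0.13), 0.20 ± 0.09 in PKCδ (adjusted p = 0.086), 0.14 ± 0.08 in PKCε (adjusted p = 0.20) and -0.09 ± 0.07 in combined hearts (adjusted p = 0.34). The call depended on 1 library in wild type, where the change was 0.22 (adjusted p = 0.022) without TAC replicate 3. In PKCδ hearts the change was 0.21 (adjusted p = 0.033) without both doubted TAC libraries and 0.22 with DESeq2 (adjusted p = 0.049) or with only the groups compared (adjusted p = 0.014). Ckm, the muscle creatine kinase, was closest to Ldb3 over all libraries (r = 0.83), followed by Cand2 (r = 0.80) and Man2c1 (r = 0.78).

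Other genes of the Z-disc also rose. Of 23 listed Z-disc genes, 13 rose and 2 fell in wild type under TAC, with a median log2 fold change of 0.39, beside 17.8% of all genes higher and 17.9% lower. In PKCδ hearts 13 rose and 2 fell (12.9% and 14.0% of all genes) and in PKCε hearts 14 rose and 1 fell (14.5% and 14.3%). In combined hearts 19 rose and 2 fell (22.0% and 21.8%), with a median of 0.66. Flnc, filamin C, went from 1001 ± 101 CPM to 1949 ± 130 CPM in wild type (SD, n = 4; adjusted p = 1.3e-08). Pdlim1, a LIM protein bound to α-actinin, rose by 0.74 (adjusted p = 5.6e-08), Des, the intermediate filament desmin that links Z-discs, by 0.81 (adjusted p = 1.2e-06), and Pdlim5 by 0.55 (adjusted p = 2.7e-05). In combined hearts Xirp2, an actin-binding protein of the intercalated disc and Z-disc, had the smallest p. It went from 332 ± 25.2 CPM to 1936 ± 286 CPM (SD, n = 4; log2 fold change 2.54 ± 0.15, adjusted p = 2.3e-12), against 598 ± 93.9 to 1088 ± 132 CPM in wild type. Nebl, nebulette, which lies along thin filaments at the Z-disc, was among the genes that fell, by 0.77 in PKCδ hearts (adjusted p = 2.3e-06). In bulk tissue a change in RNA per cell cannot be told apart from a change in the share of cell types. Summed fibroblast markers, all 8 of them detected, were at 2229 to 2316 CPM in unstressed and at 2798 to 3820 CPM in TAC wild-type hearts, where 2 of the 8 rose (Col1a1 and Col1a2, collagen chains), none fell and the median log2 fold change was 0.26. In combined hearts all 8 rose (median 0.74), and their sum went from 1713 to 1901 CPM to 2828 to 3764 CPM. Of the 8 markers of smooth muscle and pericytes 5 rose and 1 fell there, and of the 8 endothelial markers 4 rose and none fell. Of 9 macrophage markers 7 rose and none fell in wild type (median 0.48), while in combined hearts none rose and 2 fell. Of the 10 cardiomyocyte markers 3 rose and 5 fell in wild type (median -0.17), and 1 rose and 4 fell in combined hearts (median -0.18). The part of these cell types in the Z-disc results was not tested.

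The 3 ankyrin repeat genes whose proteins bind the N2A region of titin rose as well, with a median log2 fold change of 1.93 in wild type. Ankrd1 went from 1175 ± 422 CPM to 4492 ± 1011 CPM in wild type (SD, n = 4; log2 fold change 1.93 ± 0.32, adjusted p = 8.6e-05) and Ankrd23 from 356 ± 53.7 to 1313 ± 149 CPM (1.89 ± 0.15, adjusted p = 3.3e-09). Ankrd2 was at 0.150 ± 0.193 CPM unstressed and 1.76 ± 1.69 CPM after TAC (adjusted p = 0.0079). All 3 rose in wild type, PKCε and combined hearts, and Ankrd1 and Ankrd23 rose in PKCδ hearts.

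At the M-band, Myom1 rose in wild-type and combined hearts and Myom2 in PKCε and combined hearts. Wild-type libraries of Myom1 went from 1525, 1479, 1792 and 1607 CPM to 2032, 1885, 2142 and 2048 CPM (log2 fold change 0.34 ± 0.09, adjusted p = 0.0046), with no overlap. In combined hearts the change was 0.51 ± 0.09 (adjusted p = 5.5e-05), and its values of 0.23 ± 0.11 in PKCδ (adjusted p = 0.12) and 0.22 ± 0.10 in PKCε (adjusted p = 0.10) did not pass the test. In PKCδ hearts it did pass in a fit of only the groups compared (0.24, adjusted p = 0.0051). The differences of these 3 TAC effects from wild type did not pass the test (adjusted p = 0.37 to 0.90).

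Myom2, the myomesin of adult heart and fast muscle, did not pass in wild type, at 1903, 1659, 2352 and 1978 CPM unstressed and 2008, 2278, 1758 and 2141 CPM after TAC (0.05 ± 0.15, adjusted p = 0.82), nor in PKCδ hearts (-0.14 ± 0.18, adjusted p = 0.59). In PKCε hearts it rose from 1834, 1730 and 1979 CPM to 2769, 2170, 2953 and 2340 CPM (0.47 ± 0.17, adjusted p = 0.036), a call lost without any of 5 of the 7 PKCε libraries (adjusted p up to 0.12) and without the filter on low counts (adjusted p = 0.052). In combined hearts it went from 2727, 1943, 2770 and 2048 CPM to 4989, 2709, 2904 and 3612 CPM (0.58 ± 0.15, adjusted p = 0.0033), and 2 unstressed libraries lay above the lowest TAC one. With the sex label as a term this was 0.41 (adjusted p = 0.093), and over libraries labelled male, with 1 combined TAC library, 0.29 (adjusted p = 0.33). Of the combined TAC libraries 3 are labelled female, whereas all unstressed libraries are labelled male, and 11 of the 23 libraries labelled male lacked Y-linked transcripts while 4 of the 6 labelled female held them. The part of sex in the Myom2 values was not tested beyond these fits.

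The count of Myom2 over that of Myom1 was 1.12 to 1.31 in unstressed wild-type libraries and 0.821 to 1.21 after TAC. In combined hearts it was 1.22 to 1.41 unstressed and 1.18 to 1.63 after TAC, and in unstressed PKCε hearts 0.876 to 1.14. These ratios are descriptions without a test. Closest to Myom2 over all libraries and within groups was Map4, a microtubule-associated protein (r = 0.89 and 0.90). Myom3, the third myomesin gene, stood at 3.52 to 5.15 CPM in unstressed wild type, and it rose in combined hearts (0.82 ± 0.24, adjusted p = 0.0077), from 8.17, 6.23, 7.59 and 5.29 CPM to 19.7, 5.32, 10.8 and 12.2 CPM. A higher mean after TAC was not particular to combined hearts. It went from 4.56 to 7.10 CPM in wild type and from 4.66 to 8.42 CPM in PKCε hearts. In PKCδ hearts it went from 5.53 to 5.28 CPM. The tests of Myom3 in these genotypes are not given here.

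Of 12 listed M-band genes and genes around the titin kinase, 3 rose and 2 fell in wild type (median 0.14), which is near the 17.8% and 17.9% of all genes. In PKCδ hearts 5 rose and 2 fell (12.9% and 14.0% of all genes), in PKCε hearts 4 rose and 3 fell (14.5% and 14.3%), and in combined hearts 4 rose and 3 fell (22.0% and 21.8%). Trim54, a ubiquitin ligase of the MuRF family, rose by 0.55 in wild type (adjusted p = 0.00027) and by 0.80 in PKCδ hearts (adjusted p = 4e-05). Nbr1, an autophagy receptor bound to the titin kinase, fell by 0.26 in wild type (adjusted p = 0.00017). Obsl1, a cytoskeletal adaptor protein, rose by 0.37 in wild type (adjusted p = 0.0087) and fell by 0.51 in combined hearts (adjusted p = 0.00037). Among 10 genes of thin filament length and assembly, 2 rose and 2 fell in wild type, again near those shares of all genes, 3 rose and 2 fell in PKCδ, 3 rose and 3 fell in PKCε, and 3 rose and 5 fell in combined hearts. Nrap and Hspb7 rose in all 4 genotypes, and Tmod4, a tropomodulin that caps thin filaments, fell by 1.40 in combined hearts (adjusted p = 1e-09), from 31.5 ± 4.33 CPM to 12.0 ± 2.10 CPM (SD, n = 4).

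Tcap gave no call under TAC in any genotype, and its libraries were widely spread. Unstressed wild-type libraries had 2337, 1934, 1371 and 2123 CPM and TAC libraries 1546, 1632, 1603 and 1306 CPM (log2 fold change -0.35 ± 0.20, adjusted p = 0.19). Unstressed PKCδ libraries had 1095, 1415 and 1150 CPM and unstressed PKCε libraries 1178, 968 and 1987 CPM. Against unstressed wild type the differences were -0.67 ± 0.22 in PKCδ (adjusted p = 0.081) and -0.49 ± 0.22 in PKCε (adjusted p = 0.26). Both depended on a single library: without wild-type replicate 3 the PKCδ difference was -0.80 (adjusted p = 0.041), and without PKCε replicate 3 the PKCε difference was -0.86 (adjusted p = 0.027). DESeq2 called the PKCδ difference (-0.68, adjusted p = 0.038).

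The genes closest to Tcap included regulators of the circadian clock. Over all libraries they were Slc25a33, a mitochondrial carrier (r = 0.77), Gm129, a clock repressor also called Ciart (r = 0.77), and Bhlhe41, a repressor in the clock (r = 0.76). Within groups they were Usp2, a ubiquitin protease (r = 0.84), Per2, a core clock gene (r = 0.82), and Gm129 (r = 0.81). Per2 was at 76.3, 52.2, 55.3 and 72.7 CPM in unstressed wild-type libraries, at 15.9, 20.8 and 19.7 CPM in unstressed PKCδ libraries and at 21.1, 10.5 and 45.4 CPM in unstressed PKCε libraries. The time of day at which hearts were taken is not given in the sources used here, and the part of the clock genes in the Tcap differences was not tested. The count of Tcap over that of Ttn was 0.0543 to 0.121 in unstressed and 0.114 to 0.172 in TAC wild-type libraries.

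**Figure D4:**
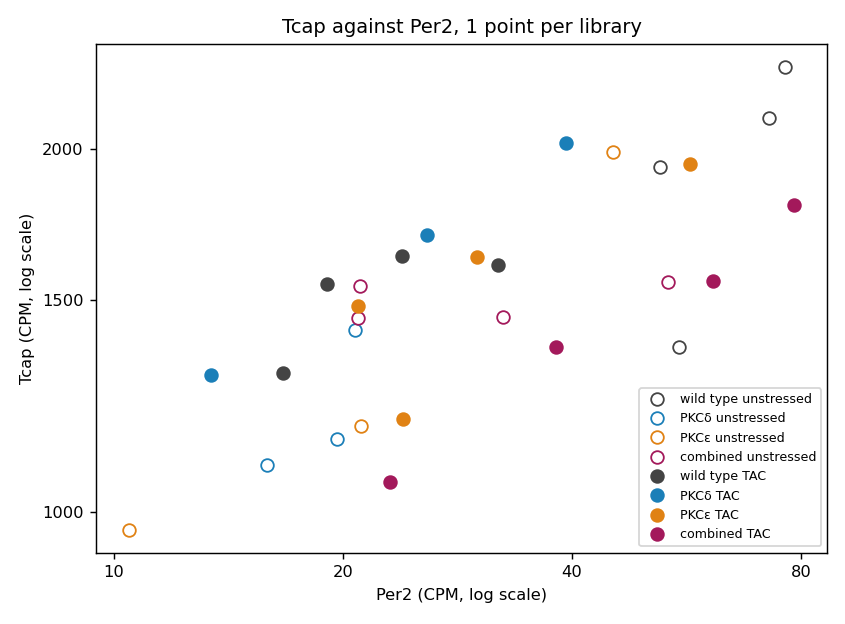
Tcap against Per2 in CPM, both on log axes, 1 point per library, coloured by genotype with TAC libraries filled. The unstressed wild-type libraries lie at 52.2 to 76.3 CPM of Per2 and the unstressed PKCδ libraries at 15.9 to 20.8 CPM.

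Cmya5 fell under TAC in the wild type and in both single ablations, and not in the combined knockout, where it was low before TAC. Wild-type libraries had 1117, 1242, 1320 and 1203 CPM unstressed and 874, 905, 755 and 935 CPM after TAC, without overlap (log2 fold change -0.49 ± 0.09, adjusted p = 8.6e-05). In PKCε hearts the levels were 1347, 1372 and 1159 CPM and then 820, 866, 978 and 987 CPM (-0.50 ± 0.10, adjusted p = 0.00023). In PKCδ hearts they were 1113, 1156 and 1284 CPM and then 971, 974 and 945 CPM (-0.30 ± 0.10, adjusted p = 0.030). The PKCδ call was lost without unstressed replicate 3 or without any of the 3 TAC libraries (adjusted p up to 0.16). Over libraries labelled male the PKCδ TAC group is 1 library, and the change there was of nearly the same size (-0.28, adjusted p = 0.16).

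In combined hearts Cmya5 was at 843, 920, 917 and 909 CPM unstressed and at 998, 1085, 748 and 911 CPM after TAC (0.06 ± 0.09, adjusted p = 0.61). Unstressed combined libraries thus lay below every unstressed library of the other 3 genotypes, in the range of the TAC libraries. Cmya5 has a longest transcript of 11.85 kb, and the gap between long and short genes given above was likewise lower in unstressed combined libraries (1.53 to 1.68) than in those of the other 3 genotypes (1.71 to 1.90). The part of transcript length in the Cmya5 difference was not tested. The difference from unstressed wild type was -0.44 ± 0.09 (adjusted p = 0.00042), and it held in every omission of a single library (adjusted p up to 0.0030). The TAC effect differed from that of wild type by 0.55 ± 0.13 (adjusted p = 0.0020), and was 0.49 (adjusted p = 0.0075) without both doubted libraries. In the fit of libraries labelled male, where the combined TAC group is 1 library, it was 0.26 (adjusted p = 0.28). Cmya5 was the only one of the 8 genes called in that test of the difference, beside 12.6% of all genes higher and 12.5% lower. The nearest genes in pattern included Aldh6a1 and Mut, enzymes of branched-chain amino acid and propionate breakdown (r = 0.93 for both). Mut fell by 0.57 in wild type (adjusted p = 0.00027), and its change in combined hearts was -0.01 (adjusted p = 0.93). The counting of reads from opposite-strand transcripts within the Cmya5 exons was not tested.

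**Figure D5:**
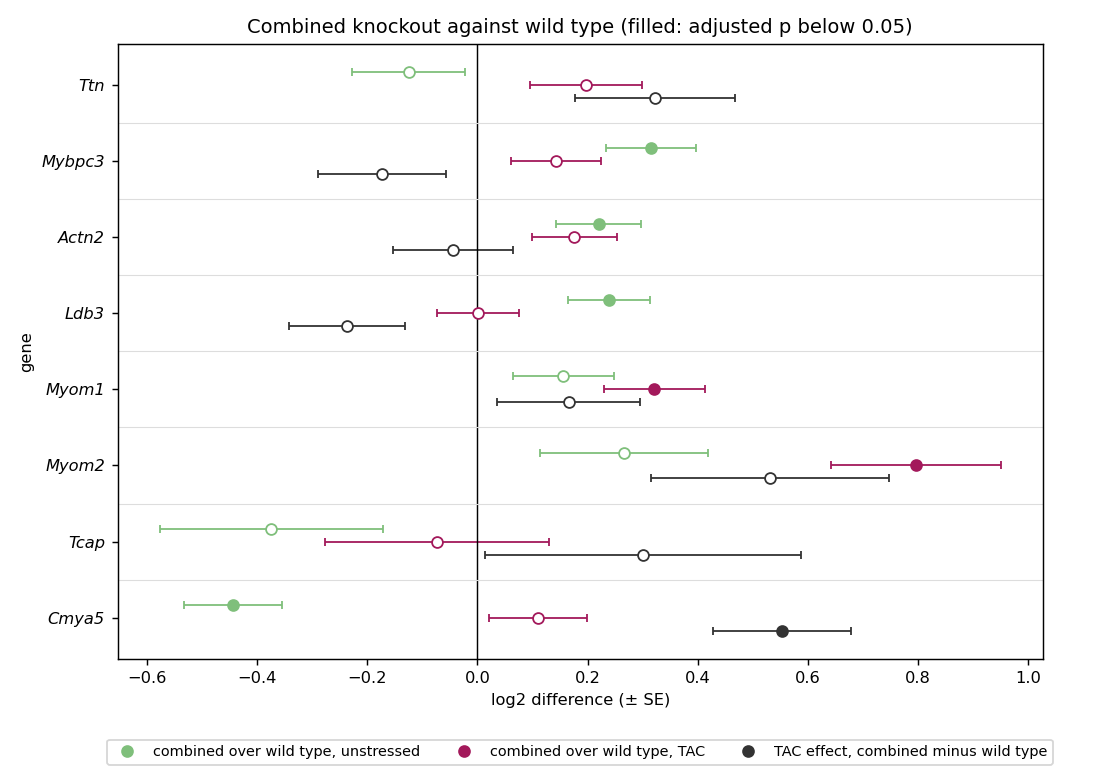
Log2 difference (horizontal axis, ± SE) of the combined knockout from wild type in unstressed hearts (green) and after TAC (purple), and of the TAC effect in the combined knockout from that in wild type (black); filled points passed an adjusted p of 0.05. Cmya5 lies at -0.44 in unstressed hearts and at 0.55 in the difference of TAC effects, and Myom2 lies at 0.80 after TAC.

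In unstressed hearts the combined knockout was the only genotype with calls among the 8 genes. Mybpc3, Actn2 and Ldb3 were higher than in wild type and Cmya5 was lower, against 15.3% of all genes higher and 13.9% lower. Markers of other cell types moved in the same comparison: 5 of 8 smooth muscle and pericyte markers were lower (median -0.46), 4 of 8 endothelial (-0.30) and 4 of 8 fibroblast markers (-0.29), with none higher, and 3 of 9 macrophage markers were higher (0.13) with none lower. Of the 10 cardiomyocyte markers 1 was lower and none higher (-0.03). The part of these cell types in the calls was not tested. Mybpc3 was higher by 0.32 ± 0.08 on the log2 scale (adjusted p = 0.0046), and its libraries at 6619 to 8266 CPM did not overlap the wild-type range of 5759 to 6172 CPM. Ldb3 was at 1490, 1451, 1426 and 1392 CPM against 1209, 1176, 1291 and 1206 CPM in wild type (0.24 ± 0.07, adjusted p = 0.017), and Actn2 at 3626, 3400, 3639 and 3392 CPM (0.22 ± 0.08, adjusted p = 0.031). Both were lost without wild-type replicate 4 or combined replicate 1, and Actn2 also without wild-type replicate 1 or 2 or combined replicate 3 (adjusted p up to 0.052 for Ldb3 and 0.15 for Actn2). None of the 8 genes was called in unstressed PKCδ hearts, against 5.37% of all genes in either direction, or in unstressed PKCε hearts, against 3.00%. At an unadjusted p below 0.05 these were 1 gene (Tcap) and 2 genes (Myom1 and Tcap), and DESeq2 called 1 (Tcap) and 0.

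Among TAC hearts Myom2 and Myom1 were higher in the combined knockout than in wild type, against 4.22% of all genes higher and 2.54% lower. Myom2 was at 2709 to 4989 CPM against 1758 to 2278 CPM, so that the groups did not overlap (log2 difference 0.80 ± 0.15, adjusted p = 0.0058). It stayed called when any single library was left out (0.59 to 0.91, adjusted p up to 0.035) and was 0.95 (adjusted p = 0.0037) without both doubted libraries. Myom1 was at 2175 to 3070 CPM against 1885 to 2142 CPM (0.32 ± 0.09, adjusted p = 0.034), and it lost its call without wild-type TAC replicate 1, 2 or 4 or combined TAC replicate 1 (adjusted p up to 0.21). Both calls were lost with the sex label as a term (adjusted p = 0.051 for Myom2 and 0.15 for Myom1), with only the groups compared (adjusted p = 0.13 and 0.21) and over libraries labelled male, where 1 combined TAC library remains (0.52, adjusted p = 0.64 for Myom2, and adjusted p = 0.74 for Myom1). Actn2 was higher by 0.18 ± 0.08 (adjusted p = 0.16), and by 0.27 (adjusted p = 0.030) without both doubted libraries.

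In the single ablations no gene of the 8 differed from wild type after TAC, where edgeR called 0% of all genes in PKCδ and 0.0436% in PKCε hearts. At an unadjusted p below 0.05 there was 1 gene in each, Ttn in PKCδ (0.23 ± 0.11) and Myom2 in PKCε (0.32 ± 0.15), and DESeq2 called neither. For PKCδ TAC hearts 789 of all genes had an unadjusted p below 0.05 and DESeq2 called 1. The test of the difference in TAC effect called none of the 8 genes in PKCδ (1.27% of all genes) or in PKCε hearts (0.0363%), with Ttn and Tcap at an unadjusted p below 0.05 in PKCδ, none in PKCε, and none by DESeq2 in either. In combined hearts it called Cmya5 alone, and Myom2 had 0.53 ± 0.22 (adjusted p = 0.074), which passed with DESeq2 (adjusted p = 0.047) and without both doubted libraries (0.69, adjusted p = 0.035). The comparisons with wild type and the TAC effects share libraries, so these values are not independent of each other.

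Of the 23 Z-disc genes, 4 were higher and 6 lower in unstressed combined hearts than in wild type, beside 15.3% of all genes higher and 13.9% lower, so that the count of higher genes was near that share. After TAC 4 were higher and none lower (4.22% and 2.54% of all genes). That TAC comparison called 930 genes in the main fit, 122 with the sex label as a term and 2 with only the groups compared. Whether the Z-disc calls after TAC, Xirp2 among them, held in those alternatives is not given here. Of the 12 M-band genes 2 were higher and 1 lower in unstressed combined hearts, and of the 10 thin filament genes 2 were higher and 1 lower, both near the shares of all genes. Xirp2 was lower by 0.85 unstressed (log2 difference -0.85 ± 0.14, adjusted p = 7.4e-05) and higher by 0.83 ± 0.14 after TAC (adjusted p = 0.0029), and Myoz2, a calcineurin-binding protein of the Z-disc, was lower unstressed (-0.62 ± 0.09, adjusted p = 1.3e-05). Obsl1 (0.68 ± 0.11, adjusted p = 3.7e-05) and Ckm (0.41 ± 0.10, adjusted p = 0.0025) at the M-band were higher in unstressed combined hearts. Among thin filament genes Tmod4 was higher (1.10 ± 0.13, adjusted p = 4.3e-07) and Lmod2, which lengthens thin filaments, was lower (-0.65 ± 0.12, adjusted p = 0.00034). Of the splicing regulators Mbnl2 (-0.30 ± 0.08, adjusted p = 0.0050) and Rbm24 (-0.31 ± 0.09, adjusted p = 0.0089) were lower, and titin itself had a difference of -0.13 ± 0.10 (adjusted p = 0.38).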

How the data were processed

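The authors deposited unnormalized counts of reads for each gene symbol. The submitters' processing notes name the genome mm10 and the tools TopHat2 2.0.10, Bowtie2, HTSeq, DESeq and edgeR, without their roles. The annotation used for counting is not given in the sources used here. Libraries were polyA-selected, single-end and without strand, per the labels' protocols. In the library files used here, 0.776% to 0.942% of reads fell on more than 1 gene and 8.01% to 14.2% were not unique, so near-identical genes are undercounted. For 23391 names these files and the deposited series table both hold a row, with identical counts, and 27 names in that table are numbers in place of a symbol.

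Tests were made in R 4.3.3 with edgeR 4.0.16 and limma 3.58.1, by the quasi-likelihood test with TMM scaling, a filter on low counts by group, robust dispersion and the means of 8 groups over all 29 libraries (21 residual degrees of freedom), with Benjamini-Hochberg adjustment at 0.05 over 13765 genes in each of 13 comparisons. The sex label was no term, since it goes against Xist and Y-linked transcripts in many libraries. Each library was 1 sample, and because the labels do not tie libraries to animals, p-values measure only the spread from library to library, which may be technical. Transcript lengths and exon overlaps come from GENCODE vM21, positions and promoters from RefSeq (GRCm38.p6), where 6 of the 8 genes had a promoter window. The script was tested on simulated data.

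The 8 genes, the lists, the tests and the alternatives were chosen with earlier results of these data known. Named beside the 8 genes are up to 4 genes with the smallest adjusted p of a list, the 3 genes with the highest Pearson r to each of the 8 over 29 libraries (mean log2 CPM of at least 2), and label checks. A few genes that this rule names are not reported here. Alternatives were RLE scaling, no filter, the sex label as a term, libraries labelled male, a replicate block, both doubted TAC libraries left out, only the groups compared, DESeq2 1.42.0, and each library left out in turn. Figures were drawn with matplotlib (Python).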

Additional observations from a re-analysis of the deposited data

Results flagged for a closer look

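Cmya5 in the unstressed combined replicate 1 stood at 843 CPM, apart from the other 3 libraries of its group at 909 to 920 CPM. The gap took 0.859 of the group's range, above Dixon's critical value for a group of 4 libraries. It was 1 of 40 combinations of gene and group tested, of which chance marks about 1 in 20.

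The TAC effect on Cmya5 was -0.49 in wild type and 0.06 in combined hearts, where it was not called. The difference was 0.55 on the log2 scale (adjusted p = 0.0020, edgeR's quasi-likelihood test of the difference itself). All 4 wild-type TAC libraries lay below all 4 unstressed ones, whereas in the combined knockout the ranges overlapped.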

How the results depend on the processing

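Of the 8 genes in 13 comparisons (104 values, 26 called), no value that was called changed sign under any alternative. RLE scaling and the replicate block changed no call of the 8 genes, leaving out the filter ended 1, the sex label as a term 3, libraries labelled male 7 and only the groups compared 2. Calls were added by leaving out both doubted libraries (3), only the groups compared (2) and DESeq2 (3). Over libraries labelled male, with 1 PKCδ and 1 combined TAC library, the genes called were 1600 against 3696 for TAC in PKCδ, 2840 against 6027 for TAC in combined hearts (2 of the 8 genes in place of 5), 46 against 6 for PKCε against wild type under TAC, 1 against 930 for combined against wild type under TAC (0 of the 8 in place of 2), 85 against 175 for the difference of TAC effects in PKCδ and 910 against 3461 in combined hearts (0 of the 8 in place of 1). With the sex label as a term, combined against wild type under TAC gave 122 genes and 0 of the 8. With only the groups compared it gave 2 genes and 0 of the 8, PKCε against wild type under TAC gave 2, and the PKCδ difference of TAC effects gave 515. DESeq2 called 1 of the 8 for unstressed PKCδ against wild type, 1 gene for PKCδ and 60 for PKCε against wild type under TAC, 303 and 52 for the differences of TAC effects in PKCδ and PKCε, and 2 of the 8 for that in combined hearts. Without both doubted libraries the counts were 24 for PKCε against wild type under TAC, 8 for the PKCε difference of TAC effects (main count 5) and 2 of the 8 for the combined one. The cause of these shifts was not tested.

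Leaving out 1 library at a time gave 210 to 779 genes for unstressed PKCδ against wild type (main count 739; lowest without PKCδ replicate 3) and 0 to 1 of the 8. It gave 112 to 506 genes for unstressed PKCε (main count 413; lowest without PKCε replicate 1) and 0 to 1 of the 8, and 2 to 4 of the 8 for unstressed combined hearts. Under TAC it gave 2 to 12 genes for PKCε and 140 to 1407 genes and 1 to 3 of the 8 for combined against wild type (lowest without combined replicate 1). TAC in PKCδ gave 2461 to 3312 genes. The differences of TAC effects gave 56 to 256 genes in PKCδ, 3 to 26 in PKCε and 1 to 3 of the 8 in combined hearts. An arm left with 1 library is assumed to vary like the other groups.

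Replicate numbers were not treated as pairs. The deviations of 94 same-numbered pairs had correlations of -0.29 to 0.24 (median -0.01), with 17 over 0.1. Pairs with different numbers were not set beside them, so these values cannot decide whether numbers mark shared handling. The replicate block gave 10 genes in place of 5 for the PKCε difference of TAC effects. Depth does not limit the 8 genes, whose lowest level is 748 CPM.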

Other observations

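Within groups, the libraries with more Mybpc3 also had more Myom2 (Pearson r = 0.74 over 29 libraries after the group means were subtracted), and those with more Ldb3 had more Ckm (r = 0.80). The closest within-group neighbour of Mybpc3 was Myo18b, a myosin of the sarcomere (r = 0.88), and that of Myom1 was Ank3, an ankyrin (r = 0.87). These values describe the libraries, which differ in more than the genes named, and carry no test.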
